A study of Mus musculus with 12 samples.

Results

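Dental epithelium was profiled at E11.5 and E13.5 (embryonic days), with 3 libraries at each stage, and the stage change within this tissue is described here across all genes of the table. These 6 libraries are those labelled as dental epithelium, out of 12 in the series, whose other 6 are dental mesenchyme of the same stages. All 12 came from wild-type C57BL/6 mouse embryos with no treatment. The tissue was taken from mandibles at E11.5 and from dissected tooth germs, incisors and molars together, at E13.5, and the epithelium was freed from the mesenchyme with dispase. Stage and dissected piece therefore changed together and cannot be told apart. Poly(A) RNA was sequenced in bulk, and a lower bulk level of a gene can come from fewer cells or from less RNA per cell, which such libraries cannot separate. The study's methods call the replicates biological, while the labels speak of pooled RNA, and neither says which embryos or litters went into which library. The p-values therefore measure the spread between these libraries, part of which may be technical.

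Between these stages the tooth goes from a thickened band of oral epithelium, the dental lamina, to a bud that pushes into neural crest-derived mesenchyme. The epithelium signals first, through the FGF, BMP, SHH and WNT families, and the potential to direct tooth formation then passes to the mesenchyme. Oral and skin epithelia of this age also begin to stratify. Basal cells express the paired keratins Krt5 and Krt14 and sit on a laminin-rich basement membrane through hemidesmosomes, while cells above them take up desmosomal cadherins, other keratins and, later, the proteins of the cornified envelope. Transcription factors of the AP-1, Klf, Grhl and p63 families are known regulators of that program in skin. Forkhead factors such as Foxf1, Foxf2, Foxd1 and Foxl1 are known in the face mainly from mesenchyme, where they respond to hedgehog signals.

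The label was checked against marker genes before any stage comparison, using FPKM (fragments mapped to a gene, scaled to its transcript length and to the library's total). Summed FPKM of 15 general epithelial genes, among them Cdh1, Epcam and Grhl2, was 103, 103 and 116 in E11.5 replicates 1 to 3 and 266, 351 and 91.0 in E13.5 replicates 1 to 3, against 12.8 to 22.5 in the 6 mesenchyme libraries. Every epithelium library stood above every mesenchyme library, but E13.5 replicate 3 was the lowest of the 6. Mesenchyme markers were far from absent: the median of 22 such genes reached 70.6 to 78.5% of the E11.5 mesenchyme level in the 3 E11.5 epithelium libraries. At E13.5 this median was 31.6 and 18.5% in replicates 1 and 2 and 82.1% in replicate 3, which on mesenchyme genes was thus close to mesenchyme. Summed FPKM of 15 immediate early and heat shock genes was 795 in that library and 216 to 275 in the other 5. On the first principal component, which held 48.5% of the variance, it lay at 38.3, between the E11.5 libraries (-73.8 to -66.6) and the other E13.5 libraries (82.8 and 93.0). Counts over all genes and for many gene lists are therefore given over 6 libraries and again over 5, without E13.5 epithelium replicate 3. Other counts are over 6 libraries unless stated.

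**Figure D1:**
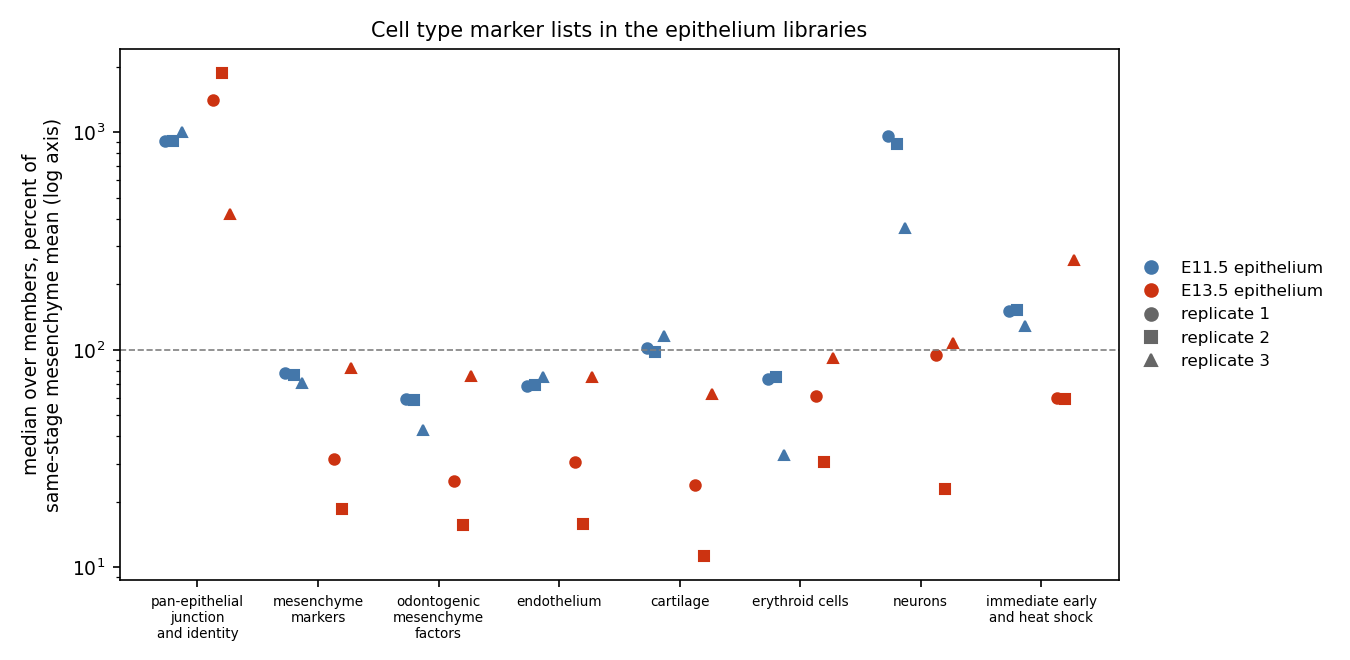
Levels of 8 gene lists, of cell type markers and of immediate early and heat shock genes, in the 6 epithelium libraries. The vertical axis (log scale) gives the median over each list's genes of the FPKM as a percent of the mean of the 3 mesenchyme libraries of the same stage, blue for E11.5 and red for E13.5, with a marker shape per replicate and a dashed line at 100%. General epithelial genes stand at 422 to 1861%, and mesenchyme markers at 82.1% in E13.5 replicate 3 against 31.6 and 18.5% in the other E13.5 libraries.

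A gene was called changed where its adjusted p (edgeR quasi-likelihood test, Benjamini-Hochberg over all genes tested) was under 0.05 and its log2 fold change, E13.5 over E11.5, was at least 1 in size. Over 6 libraries 873 genes were higher at E13.5 (4.27% of 20467 tested) and 265 lower (1.29%). Over 5 libraries 1470 genes were higher (6.89% of 21346) and 788 lower (3.69%). These shares are the background for the counts of called list members below. Of the 873, 827 were also called higher over 5 libraries, of the 265, 248 were also called lower, and 0 genes were called in opposite directions. FPKM ranges did not overlap for any of the 873 and 265, as they did not for 18.2% of tested genes on the higher side and 14.5% on the lower side. Counts fell steeply when 1 of 3 other libraries was left out: 42 higher and 15 lower without E11.5 replicate 1, 40 and 12 without E11.5 replicate 2, and 61 and 22 without E13.5 replicate 1. Scaling the libraries to the 15 general epithelial genes instead of to all genes moved the median log2 fold change of all genes from 0.05 to -0.64 over 6 libraries and from 0.03 to -1.42 over 5. That scaling left 109 genes higher and 162 lower over 6 libraries, so the share of calls that were higher went from 76.7 to 40.2%, and over 5 libraries from 65.1 to 3.18% (429 higher, 13054 lower).

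Of the 112 genes named by rule and called over 6 libraries, 9 kept their call under each of the 6 fits that leave out 1 library: Fosl2, Vgll3, Dcn and Cd44, which rose, and Foxl1, Fgf8, Igdcc3, Hsd11b2 and Hbb-bh1, which fell. Krt5 and Krt14 were not among them. The other 103 all lost their call without at least 1 of E11.5 replicates 1 and 2 and E13.5 replicate 1. Their direction was the same in each of those fits.

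Keratins of the basal layer were among the genes that rose. Krt5 (ENSMUSG00000061527, mm10 chromosome 15, 101707070 to 101712898, minus strand), the basal-layer type II keratin, had 62.9, 64.4 and 40.1 FPKM in the 3 E11.5 libraries and 887, 1390 and 267 in the 3 E13.5 libraries. The stages did not overlap, yet E13.5 replicate 3 lay well below the other E13.5 libraries. Its log2 fold change was 3.92 ± 0.58 (SE, n = 3 libraries a stage; 15.1-fold; edgeR adjusted p = 0.016), and 4.34 (adjusted p = 5.2e-04) over 5 libraries. Krt14 (chromosome 11, 100203162 to 100207548, minus strand), its type I partner, had 46.9, 48.2 and 23.1 FPKM at E11.5 against 575, 920 and 162 at E13.5, the same order of libraries. Its log2 fold change was 3.80 ± 0.63 (edgeR adjusted p = 0.021). Both calls were lost without E11.5 replicate 1 (adjusted p = 0.083 and 0.097), E11.5 replicate 2 (0.080 and 0.094) or E13.5 replicate 1 (0.074 and 0.089), and both were kept with scaling to general epithelial genes, at log2 fold changes of 2.72 and 2.58 (adjusted p = 0.023 and 0.041).

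Keratins differed among themselves. Krt17, a keratin of early ectodermal appendages and of activated keratinocytes, had 2.36, 1.94 and 1.54 FPKM at E11.5 against 121, 149 and 31.9 at E13.5. It thus went from a few FPKM to over 100 in all but E13.5 replicate 3, with a log2 fold change of 5.68 ± 0.60 (edgeR adjusted p = 0.0078). Krt6a, also expressed in hair follicle and activated epithelium, rose by a log2 fold change of 5.09 (its near-identical neighbour Krt6b may share its reads), and Krt15, a basal and stem cell keratin, by 2.95. Krt1, which marks cells that have left the basal layer, rose by 4.49 from a low start of 0.29 to 0.39 FPKM. The simple-epithelium pair Krt8 and Krt18, which also mark periderm, did not share that rise. Krt8 had 28.3, 26.7 and 26.5 FPKM at E11.5 against 22.3, 24.9 and 9.68 at E13.5, with a log2 fold change of -0.53 ± 0.31 (edgeR adjusted p = 0.34). Only Krt23 was called among the 6 simple-epithelium and periderm keratins over 6 libraries, and it is listed at 0 in all 3 E11.5 libraries, with estimated counts of 127, 124 and 37 at E13.5.

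**Figure D2:**
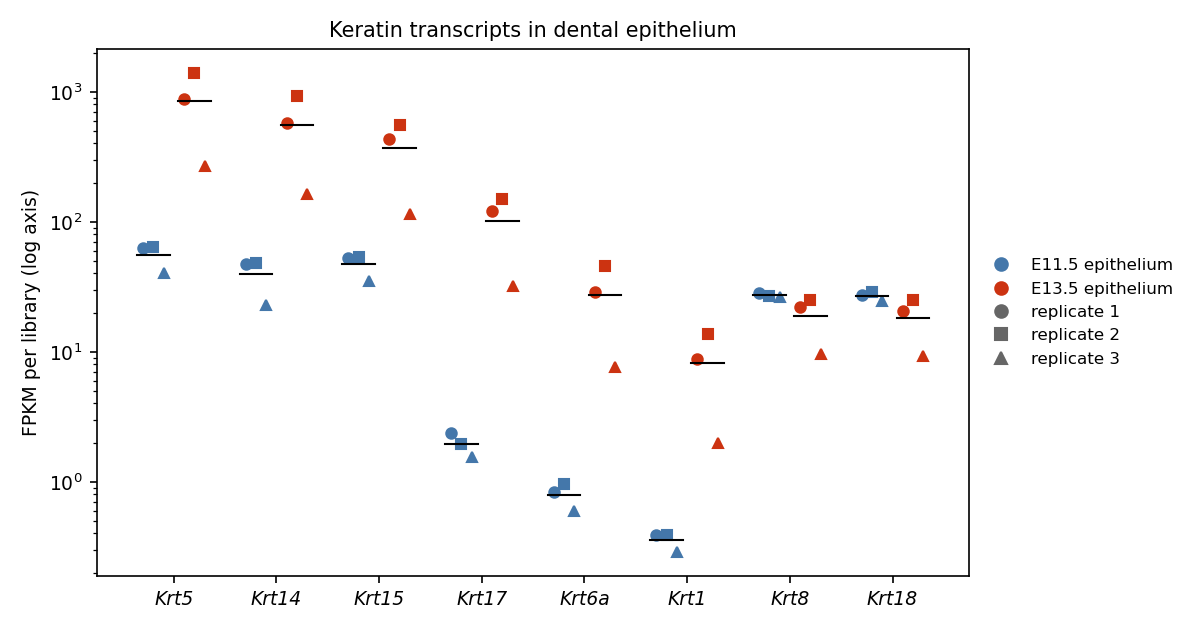
FPKM (log axis) of 8 keratin genes in each epithelium library, blue for E11.5 and red for E13.5, with a marker shape per replicate and a black bar at the mean of the 3 libraries. Krt5, Krt14, Krt15, Krt17, Krt6a and Krt1 are higher in all 3 E13.5 libraries, with replicate 3 (267 FPKM for Krt5) the lowest of them, while Krt8 and Krt18 overlap or lie lower at E13.5.

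Among 26 genes of basal and stratified epithelium, 20 were called higher and 0 lower over 6 libraries, with a median log2 fold change of 2.56 against 0.05 over all genes, and 24 and 0 over 5 libraries. Desmosomal genes were among the risers. Dsc3, a desmocollin, had 1.22, 1.02 and 1.16 FPKM at E11.5 against 24.8, 38.6 and 6.93 at E13.5, with the stages apart in every library (log2 fold change 4.36 ± 0.59, edgeR adjusted p = 0.013). Desmoglein 3 (Dsg3) rose by 6.93 on the log2 scale, plakophilin 1 (Pkp1) by 4.24, plakophilin 3 (Pkp3) by 2.17 and desmoplakin (Dsp) by 2.49. Aqp3, a glycerol and water channel of basal keratinocytes, rose by 4.38. Trp63, which encodes the p63 factor that defines stratified epithelia, was not called over 6 libraries (1.62 ± 0.47, edgeR adjusted p = 0.078), and E13.5 replicate 3 at 10.2 FPKM lay within the E11.5 range of 7.98 to 11.4. Without that library, in which the general epithelial genes were also lowest, Trp63 rose by 2.02 (adjusted p = 0.0019). The number of called members was 0 without E11.5 replicate 1 or without E11.5 replicate 2, 1 without E13.5 replicate 1, and 10 and 11 without E11.5 replicate 3 and E13.5 replicate 2, while the median stayed between 2.07 and 2.98. With scaling to general epithelial genes 9 members were called higher and 0 lower, at a median of 1.38.

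Suprabasal and cornified-layer genes included several that were at or near 0 at E11.5 and passed the filter on low counts through their E13.5 level alone, so counts and medians of this list are a description. Of 28 members, 27 were in the table and 22 passed the filter on low counts, of which 14 were called higher and 0 lower over 6 libraries (median 3.67) and 19 and 0 over 5 (median 3.998). Krtdap, a secreted protein of differentiating keratinocytes, had estimated counts of 0, 0 and 3 at E11.5 against 1118, 1487 and 89 at E13.5, or 19.4, 23.5 and 1.37 FPKM. It was all but unseen at the first stage, and at the second it was far lower in replicate 3 than in the other libraries. Dsg1a, the desmoglein of upper layers, had 0.044, 0.097 and 0.028 FPKM at E11.5 against 6.92, 9.84 and 1.21 at E13.5 (log2 fold change 6.69 ± 0.91, edgeR adjusted p = 0.013); its near-identical neighbour Dsg1b rose by 5.62, and the estimated counts may split reads between the pair. Dmkn, which encodes dermokine, and Cdsn, which encodes corneodesmosin, are listed at 0 in all 3 E11.5 libraries and were called higher, with estimated counts of 42 to 584 and 14 to 39 at E13.5. Grhl1, a grainyhead factor known to control desmosomal cadherin genes, rose by 4.30 on the log2 scale. Late envelope genes stayed at trace levels: Lor, which encodes loricrin, reached 0.41 to 1.83 FPKM at E13.5, and Ivl, which encodes involucrin, 0.018 to 0.097. Called members numbered 0 without E11.5 replicate 1, E11.5 replicate 2 or E13.5 replicate 1, and 9 and 6 without E11.5 replicate 3 and E13.5 replicate 2, with medians from 3.12 to 4.35.

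Promoters are shown for 6 members of the suprabasal list and of the list of epithelial serpins below, chosen because they hold an AP-1-like motif and not for the size of their change. Each is the stretch of 150 bases that ends at the RefSeq transcription start (GRCm38.p6, gene strand). Matches to the AP-1-like pattern TGANTCA, which allows any middle base and reads the same on both strands, are in capitals. The match is TGAATCA in Serpinb10 and Serpinb5 and TGAGTCA in the other genes that hold one. Krt5 is shown as a basal gene with no match in this stretch.
Krtdap (chr7:30787755-30787904, plus strand): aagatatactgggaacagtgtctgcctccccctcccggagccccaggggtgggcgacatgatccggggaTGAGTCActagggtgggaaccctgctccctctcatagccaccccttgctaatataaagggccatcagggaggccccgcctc
Lor (chr3:92083143-92083292, minus strand): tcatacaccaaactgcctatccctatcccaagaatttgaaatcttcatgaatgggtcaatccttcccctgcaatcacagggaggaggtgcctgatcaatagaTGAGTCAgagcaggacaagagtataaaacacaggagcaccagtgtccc
Sprr1a (chr3:92485882-92486031, minus strand): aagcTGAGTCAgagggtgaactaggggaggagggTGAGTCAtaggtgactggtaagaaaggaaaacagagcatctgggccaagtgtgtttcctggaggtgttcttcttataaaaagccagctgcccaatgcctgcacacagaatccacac
Dmkn (chr7:30763606-30763755, plus strand): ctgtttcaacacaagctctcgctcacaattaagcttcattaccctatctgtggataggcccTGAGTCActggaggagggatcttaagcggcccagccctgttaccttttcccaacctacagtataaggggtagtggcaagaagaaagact
Serpinb10 (chr1:107528853-107529002, plus strand): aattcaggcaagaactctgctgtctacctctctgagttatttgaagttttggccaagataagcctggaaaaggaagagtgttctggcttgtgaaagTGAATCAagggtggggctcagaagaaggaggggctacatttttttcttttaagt
Serpinb5 (chr1:106861025-106861174, plus strand): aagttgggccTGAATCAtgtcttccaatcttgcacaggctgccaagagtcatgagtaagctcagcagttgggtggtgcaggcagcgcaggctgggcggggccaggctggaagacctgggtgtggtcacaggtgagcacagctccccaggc
Krt5 (chr15:101712906-101713055, minus strand): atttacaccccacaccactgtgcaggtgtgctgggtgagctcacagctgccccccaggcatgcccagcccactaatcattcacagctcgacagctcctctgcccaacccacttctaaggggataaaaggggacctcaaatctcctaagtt

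The motif starts 81 bases before the start site in Krtdap, 89 in Dmkn, 48 in Lor and 54 in Serpinb10, and Sprr1a holds a pair, at 146 and 116. Over the 250 bases before the start, TGANTCA was found in 7.82% of the 27025 genes with a RefSeq promoter entry and in 5.74% of the 13320 tested genes that have one. Of genes called higher with an entry, 66 of 626 (10.5%) held it, and of genes called lower, 8 of 185 (4.32%). Suprabasal genes held it in 9 of 20 (45%), namely Dmkn, Flg, Ivl, Krt13, Krtdap, Lor, Sbsn, Sprr1a and Sprr1b, and epithelial serpins and protease inhibitors in 6 of 12 (50%). Of 26 basal genes 10 have an entry, and of 19 forkhead genes 9, and none of these held it. With so few genes, none is near what the 5.74% of tested genes would give, and many other lists also held none. These are matches of letters in a window and say nothing of binding.

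Serpins of the epithelium were also near 0 at E11.5 in several cases. Serpinb10 had 0.12, 0.055 and 0.080 FPKM at E11.5 against 6.38, 8.93 and 1.11 at E13.5, again with replicate 3 lowest of its stage (log2 fold change 5.95 ± 0.83, edgeR adjusted p = 0.014). Serpinb5, which encodes maspin, rose by 3.05, from 0.41 to 0.68 FPKM up to 1.49 to 6.84, and Serpinb3a by 6.62. Spink5, an inhibitor of the kallikreins that shed the cornified layer, is listed at 0 at E11.5 and was called higher, with estimated counts of 24 to 118 at E13.5. Members at 0 at E11.5, such as Spink5, passed the filter on low counts through their E13.5 level alone. Counts of this list are therefore a description. Of 13 tested members 7 were called higher and 0 lower, and over 5 libraries 10 of 14 and 0. That count was 0 without E11.5 replicate 1, E11.5 replicate 2 or E13.5 replicate 1, and 4 and 3 without E11.5 replicate 3 and E13.5 replicate 2.

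Some genes of adhesion to the basement membrane changed. Of 24 hemidesmosome and basement membrane genes, 6 were called higher and 1 lower over 6 libraries (median 0.93), and 12 and 1 over 5. Col17a1, the hemidesmosomal collagen, had 5.65, 5.47 and 4.61 FPKM at E11.5 against 47.3, 68.6 and 15.4 at E13.5, above the first stage in every library (log2 fold change 3.05 ± 0.49, edgeR adjusted p = 0.020). Lama3 and Lamb3, subunits of the hemidesmosomal laminin, rose by 3.62 and 2.55, the integrin Itgb4 by 2.47 and the anchoring-fibril collagen Col7a1 by 2.62. Lama1, the laminin chain of early embryonic basement membranes, fell in every library, from 2.72, 2.71 and 3.82 FPKM to 0.62, 0.59 and 1.04 (log2 fold change -2.04 ± 0.28, edgeR adjusted p = 0.014). Npnt, an integrin ligand of epithelial basement membranes, rose by 1.62. Collagen IV did not pass the test, with log2 fold changes of 0.12 for Col4a1 and 0.004 for Col4a2. Without E11.5 replicate 1, E11.5 replicate 2 or E13.5 replicate 1 no member was called, and with scaling to general epithelial genes over 5 libraries the median turned to -0.27, with 5 higher and 6 lower.

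Fosl2 rose with little spread. This AP-1 subunit gene (chromosome 5, 32135801 to 32157842, plus strand) had 1.09, 1.26 and 1.32 FPKM at E11.5 against 6.45, 7.36 and 6.33 at E13.5. Its level in E13.5 replicate 3 was close to those of the other E13.5 libraries, which was not so for the keratins. Its log2 fold change was 2.45 ± 0.14 (edgeR adjusted p = 0.0010) and ran from 2.33 to 2.51 when any library was left out, but with scaling to general epithelial genes it was 1.73 and no longer called (adjusted p = 0.34). Mesenchyme showed a change of the same size, 2.47, and the difference between the tissues was -0.06 (edgeR adjusted p = 0.97). Other AP-1 genes were highest in 1 library of the second stage. Fos had 39.5, 38.8 and 43.3 FPKM at E11.5 against 17.7, 13.49 and 227 at E13.5, so that its log2 fold change was 1.10 (adjusted p = 0.54) over 6 libraries and -1.39 (adjusted p = 0.0024) over 5. Fosb, Jun and Junb were likewise highest in E13.5 replicate 3, where FPKM was 73.3, 129 and 58.4. E13.5 mesenchyme replicate 1 also held 110 FPKM of Fos, against 19.7 and 19.2 in the other mesenchyme libraries of that stage. Like E13.5 epithelium replicate 3, this library has a name without a number. The part of handling or of a batch in these Fos values was not tested.

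Of 27 tested AP-1 and stratification factors, 11 were called higher and 0 lower over 6 libraries (median 1.25), and 16 and 2 over 5. Zfp750, a factor of terminal keratinocyte differentiation, had 1.34, 1.40 and 1.34 FPKM at E11.5 against 12, 15.9 and 5.01 at E13.5 (log2 fold change 3.01 ± 0.40, edgeR adjusted p = 0.013). All 3 E13.5 libraries were well above the narrow E11.5 range. Ehf, an epithelial ETS factor, rose by 4.86, Klf5 by 2.52, Cebpa by 2.48 and Hopx by 1.94, while Klf4, which helps build the skin barrier, had 8.16 to 9.47 FPKM at E11.5 against 7.57, 7.51 and 44.4 at E13.5 and was not called (adjusted p = 0.33). Called members numbered 1 without either of E11.5 replicates 1 and 2 and 2 without E13.5 replicate 1. With scaling to general epithelial genes the count was 1 over 6 libraries, and over 5 libraries the median was -0.08, with 5 higher and 7 lower.

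Vgll3, which encodes a cofactor of the TEAD transcription factors, rose evenly too. It lies on chromosome 16 (65815257 to 65866368, plus strand) and had 1.91, 1.91 and 2.05 FPKM at E11.5 against 8.80, 9.30 and 10.3 at E13.5. Replicate 3 was here the highest of its stage. The log2 fold change was 2.28 ± 0.13 (edgeR adjusted p = 0.0010), 2.20 to 2.33 over the fits that leave out 1 library, and 1.64 and not called with scaling to general epithelial genes (adjusted p = 0.41). Mesenchyme went from 0.58, 0.82 and 0.79 FPKM to 9.10, 9.01 and 11.1, ending at the level of the epithelium. Vgll3 was the only 1 of 15 Vgll, Tead, Yap and Taz genes called higher over 6 libraries, and Tead2 the only 1 called lower, from 78.5 to 85.7 FPKM down to 30.6 to 50.4 (log2 fold change -1.13, edgeR adjusted p = 0.025). Yap1 had 31.8 to 35.7 FPKM at E11.5 against 30.1 to 41.1 at E13.5 (0.07 ± 0.13). Ccn1, a known target of Yap and Taz, had 58.0 to 84.0 FPKM at E11.5 against 8.09, 7.58 and 141 at E13.5, so its call, lower over 5 libraries, rested on leaving out replicate 3.

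Several forkhead genes fell. Foxl1 (chromosome 8, 121127940 to 121130644, plus strand), known from gut and facial mesenchyme, had 5.36, 4.88 and 5.28 FPKM in the E11.5 epithelium libraries and 0.28, 0.29 and 0.33 in those of E13.5. All 3 libraries of each stage lay close together, replicate 3 included. Its log2 fold change was -4.11 ± 0.21 (edgeR adjusted p = 0.0010), stayed between -4.19 and -4.04 whichever library was left out, and was -4.76 with scaling to general epithelial genes. Mesenchyme held less at E11.5, 2.21 to 3.16 FPKM, and fell by 3.30 on the log2 scale, with a difference between the tissues of -0.84 (edgeR adjusted p = 0.28). Of 19 tested forkhead genes 7 were called lower and 0 higher over 6 libraries (median -1.28), and 11 and 3 over 5 (median -1.60).

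Foxd1 had 12.2, 11.8 and 13.4 FPKM at E11.5 against 1.55, 0.70 and 2.48 at E13.5, and Foxf2 fell from 15.0 to 16.6 FPKM to 1.17 to 3.32. Both kept well apart between the stages, with log2 fold changes of -2.98 ± 0.43 and -2.78 ± 0.36 (edgeR adjusted p = 0.015 and 0.013). Foxc2 fell by 1.72 and Foxc1 by 1.13 on the log2 scale, and Foxa1 and Foxa2, factors of foregut endoderm, fell by 1.78 and 5.44. Foxd2, which the list of 19 does not hold, fell by 3.64. Foxf1 had 14.5, 12.8 and 13.3 FPKM at E11.5 against 0.36, 0.36 and 3.01 at E13.5, and was called lower only over 5 libraries (-5.24, edgeR adjusted p = 2.3e-04, against -3.43, adjusted p = 0.053, over 6). Foxi3, an early dental and ectodermal placode factor, rose over 5 libraries by 3.02 (adjusted p = 0.0071), with 0.31 to 0.86 FPKM at E11.5 against 4.25, 6.37 and 1.12 at E13.5. Several of these genes are also mesenchymal, and the mesenchyme marker median of E13.5 replicates 1 and 2 was 31.6 and 18.5% of mesenchyme against 70.6 to 78.5% at E11.5; its part in the forkhead changes was not tested. At E13.5 mesenchyme itself held 0.19 to 0.36 FPKM of Foxl1 and 0.95 to 1.94 of Foxd1, ranges that overlap those of E13.5 epithelium. Forkhead calls numbered 1 without E11.5 replicate 1, E11.5 replicate 2 or E13.5 replicate 1, that gene being Foxl1, and 4 and 6 without E11.5 replicate 3 and E13.5 replicate 2.

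**Figure D3:**
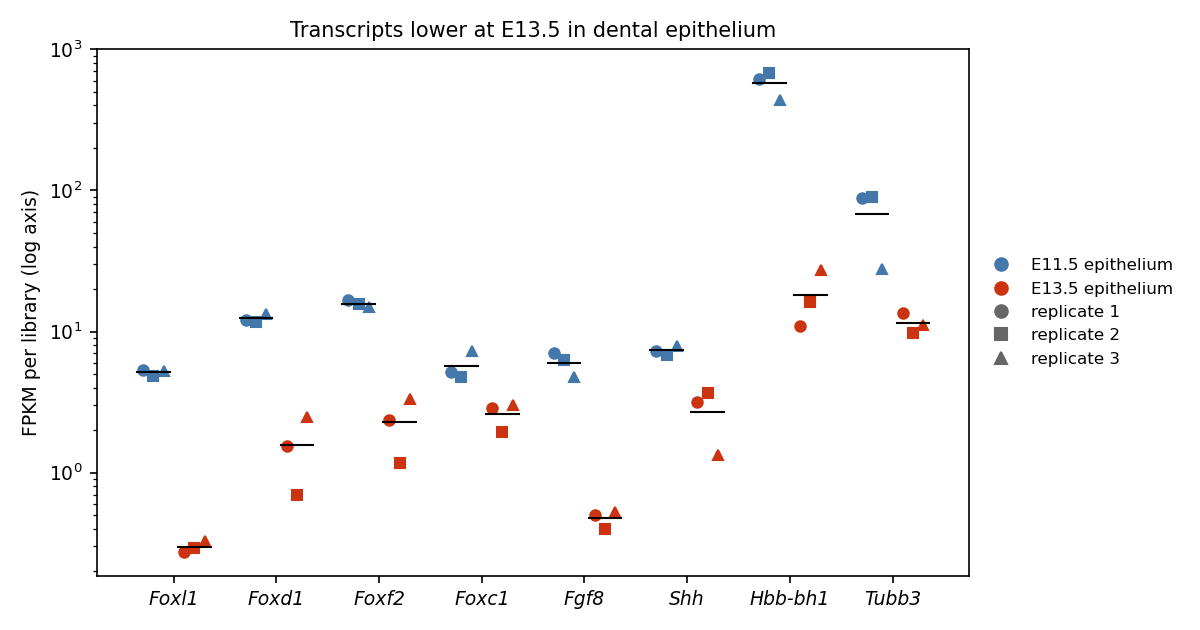
FPKM (log axis) of Foxl1, Foxd1, Foxf2, Foxc1, Fgf8, Shh, Hbb-bh1 and Tubb3 in each epithelium library, blue for E11.5 and red for E13.5, with a marker shape per replicate and a black bar at the mean of the 3 libraries. All 8 are lower in the 3 E13.5 libraries; Foxl1 (0.28 to 0.33 FPKM) and Fgf8 (0.40 to 0.53) show the tightest E13.5 groups.

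Signalling ligands of the epithelium changed in both directions, also within families. Fgf8, the first FGF of the oral epithelium, had 7.03, 6.26 and 4.73 FPKM at E11.5 against 0.50, 0.40 and 0.53 at E13.5. No library departed from this order, and its log2 fold change was -3.63 ± 0.28 (edgeR adjusted p = 0.0033), between -3.77 and -3.50 with any library left out. Shh, the hedgehog ligand of the dental epithelium, had 7.33, 6.86 and 7.88 FPKM at E11.5 against 3.14, 3.65 and 1.34 at E13.5, lowest where the general epithelial genes were lowest (log2 fold change -1.45 ± 0.35, edgeR adjusted p = 0.047). Fgf4, a ligand of the later enamel knot, is listed at 0 in all E11.5 libraries and was called higher, although its E13.5 level was only 0.10 to 0.40 FPKM. Fgf9 was near level, 1.21 to 2.32 FPKM at E11.5 against 1.59 to 1.83 at E13.5 (-0.18 ± 0.27).

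WNT ligands were among the risers of the 21 ligand genes, of which 6 were called higher and 2 lower over 6 libraries and 11 and 3 over 5 (medians 1.15 and 1.33). Wnt10b had 3.36, 3.57 and 2.48 FPKM at E11.5 against 22.1, 27.8 and 5.46 at E13.5, so even the lowest E13.5 library exceeded the first stage (log2 fold change 2.55 ± 0.54, edgeR adjusted p = 0.036). Wnt10a, mutated in human tooth agenesis, rose by 2.33 and Wnt3a by 2.10. Wnt3, Wnt4, Wnt6 and Wnt7b were called over 5 libraries only, with log2 fold changes of 2.06, 1.33, 1.61 and 1.53. Bmp7 rose by 1.05 and Eda, the TNF-family ligand of ectodermal organs, by 1.78, from 0.85 to 0.87 FPKM up to 2.08 to 3.70. Bmp4, whose expression passes from epithelium to mesenchyme during tooth initiation, had 8.26 to 11.6 FPKM at E11.5 against 4.96, 4.18 and 10.4 at E13.5, and was called lower over 5 libraries (-1.15, edgeR adjusted p = 0.010) but not over 6 (-0.62, adjusted p = 0.32). Without E11.5 replicate 1, E11.5 replicate 2 or E13.5 replicate 1 the ligand calls were 0 higher and 1 lower, Fgf8, and with scaling to general epithelial genes they were 1 and 2 over 6 libraries and 3 and 5 over 5, the last at a median of -0.15.

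Of 28 receptors and inhibitors 3 were called higher and 0 lower over 6 libraries, against 4.27 and 1.29% of all tested genes. Over 5 libraries 12 were called higher and 1 lower, against 6.89 and 3.69%. Edar, the receptor of Eda, had 0.47, 0.61 and 0.90 FPKM at E11.5 against 4.25, 5.57 and 1.57 at E13.5, apart in every library (log2 fold change 2.51 ± 0.49, edgeR adjusted p = 0.029). Fst, which encodes the activin inhibitor follistatin, rose by 1.78 and Fgfr3 by 1.23. Over 5 libraries the receptors Fzd6, Fzd10, Fgfr2 and Tnfrsf19 and the WNT inhibitors Dkk4 and Sostdc1 rose by 2.39, 2.11, 1.36, 1.78, 3.25 and 1.34. Ptch1, the hedgehog receptor and a hedgehog target, had 9.31 to 17.5 FPKM at E11.5 against 5.67 to 7.13 at E13.5 (-0.95 ± 0.26, edgeR adjusted p = 0.068). The 3 calls over 6 libraries were lost without E11.5 replicate 1, E11.5 replicate 2, E13.5 replicate 1 or E13.5 replicate 2, each of which left 0, and with scaling to general epithelial genes over 5 libraries 2 were higher and 10 lower, at a median of -0.53.

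Of 29 response genes of these pathways 2 were called higher and 1 lower over 6 libraries, shares near those of all tested genes (4.27 and 1.29%), at a median of -0.20. Axin2, a general readout of WNT signalling, had 13.8, 13.2 and 12.2 FPKM at E11.5 against 10.7, 10.5 and 12.9 at E13.5, overlapping stages (-0.20 ± 0.13, edgeR adjusted p = 0.37). Gli1, the readout of hedgehog signalling, went from 17.4, 16.9 and 19.0 to 9.85, 9.91 and 8.64 FPKM, lower in all 3 libraries, and its log2 fold change of -0.91 ± 0.11 passed the test (adjusted p = 0.011) but not the size threshold. Rnf43, a WNT receptor ligase, rose by 1.83 and the FGF response gene Spry1 by 1.01, whereas Dusp6, another FGF response gene, had 17.4 to 18.9 and 16.9 to 20.2 FPKM (0.01 ± 0.12). Cyp26a1, which degrades retinoic acid, fell by 1.03. Over 5 libraries 2 were called higher and 7 lower, against 6.89 and 3.69% of all tested genes. Over 6 libraries the count was 0 without E11.5 replicate 1, 2 or 3 or without E13.5 replicate 1 or 2.

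Transcription factors of the oral and dental epithelium did not move one way. Over 6 libraries 2 of 26 were called higher and 2 lower, against 4.27 and 1.29% of all tested genes. Over 5 libraries 6 were called higher and 5 lower, against 6.89 and 3.69%. Sox2, expressed in dental lamina, had 9.82 to 13.4 FPKM and 14.6, 20.3 and 4.97 (0.12 ± 0.44). Otx1 and Bcl11b, the second needed for ameloblast formation, rose by 1.91 and 1.33. Dlx2 fell by 1.28, from 14.2 to 19.5 FPKM to 5.32, 7.39 and 9.08, and Sp8 was at trace levels, 0.069 to 0.11 FPKM at E11.5, and is listed at 0 in all E13.5 libraries. No member was called without E11.5 replicate 1, E11.5 replicate 2 or E13.5 replicate 1.

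Proteoglycan core proteins, which carry the sulfated sugar chains that hold growth factors, include genes that rose in both tissues. Dcn, which encodes the collagen-binding proteoglycan decorin, had 2.17, 1.95 and 1.34 FPKM in E11.5 epithelium and 35.1, 33.3 and 32.0 at E13.5. The 3 E13.5 libraries were within a narrow range. E13.5 mesenchyme held 31.4 to 45.0 FPKM, Dcn is itself 1 of the 22 mesenchyme markers, and the part of mesenchyme RNA in its level was not tested. Its log2 fold change was 4.199 ± 0.20 (edgeR adjusted p = 0.0010), between 4.02 and 4.35 with any library left out. Cd44, the hyaluronan receptor, rose as evenly, from 0.57, 0.51 and 0.69 FPKM to 6.34, 7.34 and 5.31 (3.42 ± 0.20, edgeR adjusted p = 0.0010). Aspn and Ogn, small leucine-rich proteoglycans of connective tissue, rose by 6.51 and 3.93 on the log2 scale and were highest in E13.5 replicate 3, at 24.2 and 32.1 FPKM against 5.83 to 7.68 and 9.61 to 15.0 in replicates 1 and 2. Within E13.5 both were thus highest in the library with the highest mesenchyme marker median. In replicates 1 and 2 that median was below its E11.5 values. The part of mesenchyme RNA in the level of Aspn and Ogn was not tested. Sdc4, a syndecan, rose by 1.22, while Sdc1, the main epithelial syndecan, had 51.6 to 54.6 FPKM at E11.5 against 53.4 to 64.0 at E13.5 (0.11 ± 0.11).

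Of 33 tested core protein genes 9 were called higher and 0 lower over 6 libraries (median 0.97), and 10 and 2 over 5 (median 0.62, and -0.72 with 4 higher and 16 lower with scaling to general epithelial genes). The count was 2 without E11.5 replicate 1 or without E11.5 replicate 2 (Dcn and Cd44), and 3 without E13.5 replicate 1. Spock2, an extracellular testican, had 4.22, 4.61 and 1.78 FPKM in E11.5 epithelium and 3.29, 3.53 and 3.93 at E13.5 (0.02 ± 0.34), whereas mesenchyme went from 0.45 to 0.71 to between 4.55 and 5.15 FPKM; the difference between the tissues in stage change was -3.08 (edgeR adjusted p = 0.015). Gpc4, a glypican, showed the same kind of difference at -1.42 (adjusted p = 0.029). Of the enzymes that build the sugar chains, 1 of 25 heparan sulfate genes (Extl1, 2.11), a share near that of all tested genes (4.27%), and 4 of 16 chondroitin and dermatan sulfate genes (Csgalnact1, Chst11, Chst15 and Ust, 1.02 to 2.20) were called higher and 0 lower. None of these enzyme calls held without E11.5 replicate 1, E11.5 replicate 2 or E13.5 replicate 1.

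**Figure D4:**
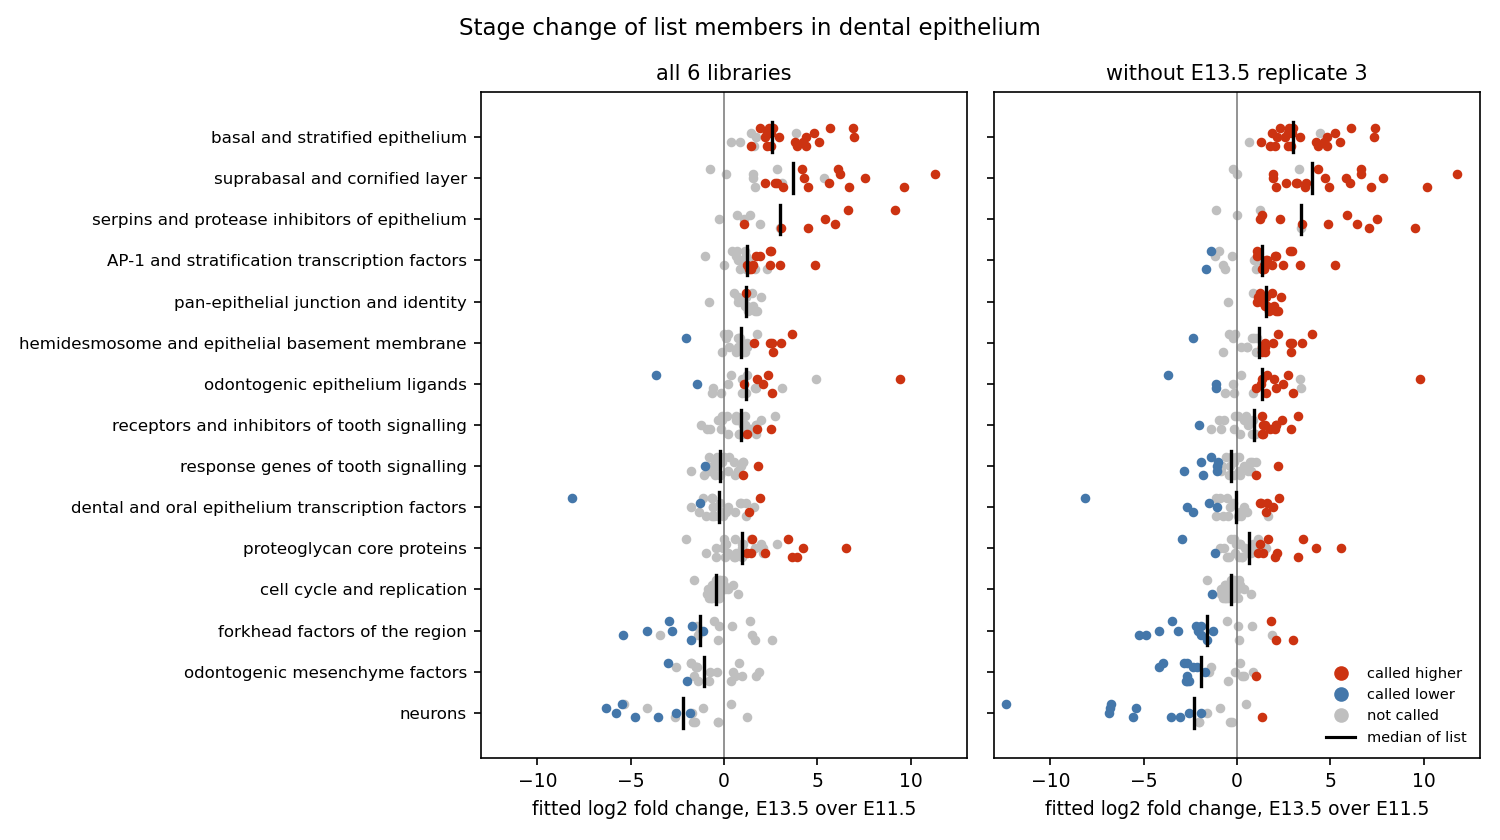
Fitted log2 fold change (E13.5 over E11.5) of the members of 15 gene lists, over 6 libraries on the left and without E13.5 epithelium replicate 3 on the right; red points were called higher, blue lower and grey not called, and the black line is the list's median. Basal and suprabasal genes lie to the right (medians 2.56 and 3.67 over 6 libraries) and forkhead genes and neuron markers to the left (medians -1.28 and -2.20).

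Markers of blood and of neurons were among those lower at E13.5. Embryonic globins fell: Hbb-bh1, the early beta-like globin of primitive red cells, had 616, 678 and 440 FPKM at E11.5 against 11.04, 16.1 and 27.2 at E13.5 (log2 fold change -4.99 ± 0.39, edgeR adjusted p = 0.0033). Mesenchyme held a similar change, -5.73, and Hbb-bh1 kept its call whichever library was left out. Hba-x, the embryonic alpha-like globin, fell by 3.39, while the adult gene Hbb-bs rose by 2.29; Hbb-bs and Hbb-bt share long stretches and may share reads. Tubb3, a neuronal tubulin, had 88.3, 89.5 and 27.7 FPKM at E11.5 against 13.48, 9.80 and 11.1 at E13.5, with E11.5 replicate 3 well below the other E11.5 libraries (-2.58 ± 0.43, edgeR adjusted p = 0.021). Summed FPKM of 18 neuron markers was 227, 229 and 67.6 at E11.5 against 36.5, 21.6 and 38.7 at E13.5. Nhlh1, Neurod1 and Pou4f1, factors of differentiating sensory neurons, fell by 6.33, 5.77 and 4.80. Of the 18 markers 7 were called lower and 0 higher over 6 libraries and 10 and 1 over 5, and none without E11.5 replicate 1, E11.5 replicate 2 or E13.5 replicate 1.

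Of 22 mesenchyme markers 9 lay higher in all 3 E13.5 libraries than in any E11.5 library and 0 lower, against 18.2 and 14.5% of all tested genes. Over 6 libraries 3 of them (Dcn, Postn and Col6a1) were called higher and 0 lower, and over 5 libraries 4 higher and 5 lower. Twist1, a neural crest mesenchyme factor, had 141, 139 and 83.0 FPKM at E11.5 against 29.7, 18.2 and 97.0 at E13.5 (-1.31, edgeR adjusted p = 0.22, over 6 libraries and -2.35, adjusted p = 0.0049, over 5). Of 20 odontogenic mesenchyme factors 2 were called lower over 6 libraries, Hand1 (-2.997) and Hand2 (-1.98), and 11 lower and 1 higher over 5. Msx1, Barx1 and Gsc were called over 5 libraries only, with log2 fold changes of -2.87, -2.36 and -4.21. Markers of muscle (4 of 13 tested) and cartilage (4 of 12) were also called higher in part over 6 libraries, with 0 lower, and osteoblast markers in 1 of 9. Of all tested genes 4.27% were called higher and 1.29% lower. Without E11.5 replicate 1 or E11.5 replicate 2 none of these muscle, cartilage and osteoblast markers was called. Without E13.5 replicate 1 only 1 cartilage marker was. Over 5 libraries muscle markers gave 3 higher and 0 lower of 14 tested. Cartilage markers gave 5 higher and 3 lower of 12, their median going from 1.02 over 6 libraries to 0.08. Osteoblast markers gave 2 and 2 of 9, with a median going from 0.62 to -0.13. Of all genes tested over 5 libraries 6.89% were called higher and 3.69% lower. Over 6 libraries, of 11 erythroid genes 1 was called higher and 4 lower, and of 8 Schwann and glial genes 1 and 1. Of 10 endothelial and 11 macrophage and leukocyte genes 0 were called. Over 5 libraries erythroid genes gave 1 higher and 6 lower, and Schwann and glial genes 1 and 1. Endothelial genes gave 0 and 3, and macrophage and leukocyte genes 0 and 0. Immediate early and heat shock genes gave 2 higher and 0 lower of 15 over 6 libraries and 3 and 6 over 5. The general epithelial genes themselves were called higher in 1 of 15 over 6 libraries and in 13 over 5. Cell cycle genes had a median of -0.42, with 0 of 28 called over 6 libraries, 18 of them lower in FPKM in all 3 E13.5 libraries than in any E11.5 library, which held for 14.5% of all tested genes. Cxcl14, a chemokine of oral and skin epithelium, rose from 147, 144 and 89.6 to 456, 619 and 215 FPKM (1.76 ± 0.38, edgeR adjusted p = 0.037), 1 of 3 called higher among 6 tested chemokine genes.

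The stage change was then compared with that in mesenchyme. In a fit of the 6 mesenchyme libraries 2646 genes were higher at E13.5 (13.1% of 20271 tested) and 626 lower (3.09%). Of the 873 genes that rose in epithelium 630 (72.2%, and 23.8% of the 2646) also rose in mesenchyme, and of the 265 that fell 111 (41.9%, and 17.7% of the 626) also fell. In 1 model over all 12 libraries the change differed between the tissues at an adjusted p under 0.05 for 45 genes, 3 more positive (0.0136% of 22110) and 42 more negative (0.19%) in epithelium. Without E13.5 epithelium replicate 3 these counts were 970 (4.2% of 23092) and 2126 (9.21%). Of the 1470 genes higher over 5 libraries 273 were among the more positive, and 430 of the 788 lower ones were among the more negative. The mesenchyme marker median was 70.6 to 78.5% of mesenchyme in E11.5 epithelium. In E13.5 epithelium it was 31.6 and 18.5% in replicates 1 and 2 and 82.1% in replicate 3. The part of mesenchyme RNA in these overlaps and differences was not tested.

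Aqp3 had by far the higher level in E13.5 epithelium. It had 0.68, 0.31 and 0.61 FPKM at E11.5 against 12.3, 18.7 and 2.66 at E13.5 in epithelium, and 0.57 to 1.21 and 0.59 to 0.89 in mesenchyme. The difference between the changes was 4.71 (edgeR adjusted p = 0.043), a call lost in 12 of 17 alternatives. Vgll3 rose in both tissues but by more in mesenchyme, where its log2 fold change was 3.71, a difference of -1.47 (adjusted p = 0.0072). Nell2, a secreted neural ligand, kept its level in epithelium (6.98 to 7.27 and 6.18 to 7.83 FPKM) while mesenchyme went from 1.52 to 1.63 up to 6.49 to 6.88, a difference of -2.09 (adjusted p = 1.9e-04). Dok5, a docking protein of receptor kinases, and Fabp7, a fatty acid binding protein of neural and glial cells, gave differences of -3.02 and -4.04.

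**Figure D5:**
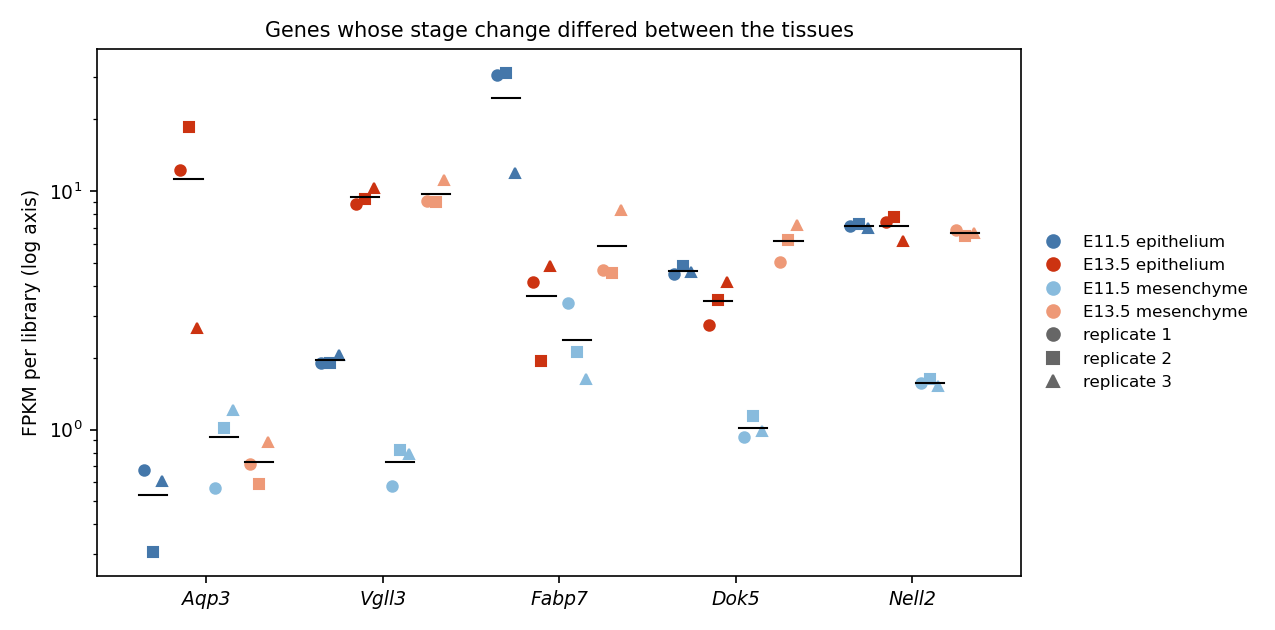
FPKM (log axis) of Aqp3, Vgll3, Fabp7, Dok5 and Nell2 in the 4 groups of 3 libraries, with a marker shape per replicate. Aqp3 is highest in E13.5 epithelium (2.66 to 18.7 FPKM), and Vgll3, Dok5 and Nell2 start lower in E11.5 mesenchyme than in E11.5 epithelium.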

How the data were processed

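The authors trimmed reads with Cutadapt 1.9, aligned them with HISAT2 2.0.4 to mm10 and quantified genes with StringTie 1.3.4d (versions from the study's methods and the submitters' processing notes). They deposited 1 table of 34347 genes that gives, for each of 12 libraries, an estimated count and an FPKM value. The deposited estimated counts are whole numbers that total 70134554 to 79349382 in the epithelium libraries, and were used as such. These totals exceed the read pairs that the study gives, so they are not a depth and 1 estimated count is less than 1 read pair. Epithelium replicate 3 and mesenchyme replicate 1 of each stage are the libraries whose names carry no number. By the study's sequencing statistics, the valid share of raw reads was higher in each of these than in any numbered library. No source names a batch. Stages were compared with edgeR 4.0.16 in R 4.3.3 (quasi-likelihood test, filterByExpr, TMM), over 6 libraries, over 5 without E13.5 replicate 3, and for the difference between tissues over 12. Standard errors are the log2 fold change over the root of F. DESeq2 1.42.0, limma 3.58.1 on log2(FPKM + 0.5) and other scalings were alternatives. Genes named are the 5 markers, the 12 largest called changes a direction with at least 5 FPKM, up to 6 called members of each of 29 gene lists, and up to 6 genes a direction that differ between tissues, of which a few are not reported here. The genes, lists and comparison were chosen with earlier results of these data known. Same-numbered epithelium libraries of the stages did not deviate together (r = -0.008, -0.067 and -0.043), so numbers were not taken as pairs. Whether epithelium and mesenchyme libraries came from the same pieces was not checked. The fit over 12 libraries does not pair them. E11.5 epithelium replicates 1 and 2 were the closest pair (median difference 0.05 log2). In every group the libraries with a number in their names were the closest pair, at 0.051 to 0.098. Pairs that hold the library without a number differed by 0.142 to 0.268. E11.5 epithelium replicates 1 and 2 were kept apart. Since estimated counts exceed read pairs, their difference cannot be set against counting noise. That pair was also summed as an alternative. Whether reads were counted by strand is not given in the sources used here.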

Additional observations from a re-analysis of the deposited data

Results flagged for a closer look

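In 10 named genes the stage change differed between epithelium and mesenchyme by a test of that difference (edgeR, all 12 libraries, epithelium minus mesenchyme on the log2 scale, 3 libraries a group). It was more positive in epithelium for Aqp3 (4.71, adjusted p = 0.043). It was more negative for Fabp7 (-4.04, adjusted p = 0.032), Sgms2 (-3.36, adjusted p = 0.016), Spock2 (-3.08, adjusted p = 0.015), Mgp (-3.08, adjusted p = 0.035), Dok5 (-3.02, adjusted p = 0.0017), Aldh1a3 (-2.50, adjusted p = 0.0094), Nell2 (-2.09, adjusted p = 1.9e-04), Vgll3 (-1.47, adjusted p = 0.0072) and Gpc4 (-1.42, adjusted p = 0.029). Spock2 and Gpc4 were named as members of the proteoglycan list. Of 17 alternatives for each gene, Vgll3, Nell2, Dok5 and Aldh1a3 kept the call in all, while it was lost in 12 for Aqp3, 10 for Fabp7, 10 for Gpc4, 9 for Mgp, 5 for Sgms2 and 4 for Spock2.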

How the results depend on the processing

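None of the 112 named genes called over 6 libraries changed direction under the alternatives. Genes called over 5 libraries only were set against fits that also leave out E13.5 replicate 3. Those fits cannot show a reversal caused by that library, and Fos, described above, had opposite signs over 6 and 5 libraries. Counts of genes higher and lower at E13.5 over 6 libraries (873 and 265) moved to 1512 and 567 with DESeq2, 109 and 162 with scaling to general epithelial genes, 451 and 126 with no filter on low counts, 1399 and 451 with all libraries in the fit, and with limma to 434 and 172 (pseudocount 0.5), 279 and 120 (pseudocount 1) and 194 and 84 (0.5, no filter). Leaving out each library gave 40 to 1470 and 12 to 788. Chosen after seeing the data, E11.5 replicates 1 and 2 summed into 1 library gave 46 and 16, and the numbered libraries alone 2001 and 1131. Over 5 libraries (1470 and 788) the counts were 429 and 13054 with scaling to general epithelial genes and 973 and 454 with limma, and 642 to 2001 and 267 to 1131 with a further library left out. Genes whose change differed between tissues (3 more positive, 42 more negative) became 249 and 699 with DESeq2, 1 and 25 with no filter, 16 and 97 with the libraries without a number as covariate, and 1 to 970 and 14 to 2126 with a library left out. With the replicate number as a block, the counts were 46 and 8 over 6 libraries and 1 and 18 for the difference between tissues. The replicate numbers do not pair the epithelium libraries across the stages. They also do not follow the library names across tissues, so this block does not test a pairing of epithelium with mesenchyme. Of 2004 values of 112 named genes under the alternatives, 1171 kept their call and 833 lost it. Fits that leave out 1 library all have fewer degrees of freedom, yet their counts were unlike. They ran from 40 and 12 without E11.5 replicate 2 to 758 and 275 without E11.5 replicate 3 and 1470 and 788 without E13.5 replicate 3. The cause was not tested. Estimated counts exceed the read pairs, so what depth limits was not tested, and genes with few counts are the least certain.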
